A study of Homo sapiens with 6 samples.

Results

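The messenger RNAs described here are 7 established targets of the let-7 microRNAs outside the LIN28 axis: IGF2BP1, IGF2BP2, IGF2BP3, HMGA1, HMGA2, ARID3B and NRAS. They were taken by symbol from a table of raw read counts, which lists all 7 among its 16199 genes. The rule uses no measured value, but the genes were chosen with earlier results of these data known. The RNA came from H1, an established line of human embryonic stem cells, with 2 samples for each of 3 genotypes. The homozygous samples carry the DICER1 change S1344L, a cancer hotspot mutation introduced with CRISPR-Cas9, on both alleles. The hemizygous samples are given as hemizygous for S1344L, and the labels do not say what became of the other allele. The wild-type samples are H1 cells that the titles call wild-type. No treatment or time course is given, and the labels do not say how many clones were used or whether the 2 samples of a genotype came from separate cultures, so the spread behind every p-value here is that between these samples and may be technical.

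DICER1 cuts hairpin precursors into mature microRNAs. Its RNase IIIb domain makes the cut that defines the 5p strand, and S1344L, which lies in the RNase IIIa domain, has been described as impairing that cut. The let-7 family is made from the 5p arm and represses mRNAs through matches to its seed, positions 2 to 8 of the microRNA. In embryonic stem cells LIN28 proteins keep mature let-7 low, and the oncofetal targets described here are high there, fall during differentiation and return in many tumours. The libraries measure messenger RNA and not mature microRNAs.

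The mature let-7 sequences are shown because every seed match reported below pairs with the same 7 bases. RefSeq (GRCh38.p14) lists 11 mature human microRNAs with this seed, from 14 hairpins, and 9 of the 11 are named as 5p products. The other 2 are hsa-miR-4458 and hsa-miR-4500. The 9 5p sequences follow, 5′ to 3′, with positions 2 to 8 in capitals.
hsa-let-7a-5p: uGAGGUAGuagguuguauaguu
hsa-let-7b-5p: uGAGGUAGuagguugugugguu
hsa-let-7c-5p: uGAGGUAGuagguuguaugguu
hsa-let-7d-5p: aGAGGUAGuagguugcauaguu
hsa-let-7e-5p: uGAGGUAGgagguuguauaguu
hsa-let-7f-5p: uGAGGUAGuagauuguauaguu
hsa-let-7g-5p: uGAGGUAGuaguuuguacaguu
hsa-let-7i-5p: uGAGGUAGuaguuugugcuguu
hsa-miR-98-5p: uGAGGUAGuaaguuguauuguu

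The target side of the pairing is the motif CTACCTC, searched on the sense strand of annotated 3′ UTRs (GENCODE release 29, GRCh38), and the strongest form of it is followed by A. Over all coding transcripts the 7 genes hold 13 such matches at distinct positions, 6 of them followed by A. Each is shown as the 22 bases that end opposite position 1 of let-7, 5′ to 3′ on the strand of the gene, with the match, and the A where present, in capitals.
IGF2BP1, chr17:49051062-49051083 (+): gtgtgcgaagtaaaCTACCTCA
IGF2BP1, chr17:49053699-49053720 (+): agcagtgctagtaaCTACCTCA
IGF2BP1, chr17:49054353-49054374 (+): tataaatggattaaCTACCTCA
IGF2BP1, chr17:49054998-49055019 (+): cacttttgttttatCTACCTCt
IGF2BP2, chr3:185644220-185644241 (-): acacacagaagaagCTACCTCA
IGF2BP3, chr7:23311795-23311816 (-): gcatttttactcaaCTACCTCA
HMGA1, chr6:34245830-34245851 (+): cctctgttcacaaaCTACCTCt
HMGA2, chr12:65963299-65963320 (+): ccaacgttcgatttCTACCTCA
HMGA2, chr12:65964534-65964555 (+): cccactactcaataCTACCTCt
HMGA2, chr12:65964946-65964967 (+): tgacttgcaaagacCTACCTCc
HMGA2, chr12:65965799-65965820 (+): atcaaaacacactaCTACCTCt
ARID3B, chr15:74598102-74598123 (+): atttcaataaacctCTACCTCt
NRAS, chr1:114707901-114707922 (-): agttctcagaataaCTACCTCc

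IGF2BP1 and HMGA2 carry 4 matches each and the other 5 genes 1 each. Of 19007 genes with an annotated 3′ UTR of at least 30 nt, 9.78% have the motif in the longest one. Among 843 UTRs within 20% of the 6206 nt of IGF2BP1, 29.42% held the motif at least once and 0.59% held it at least 4 times. The counts depend on the transcript. IGF2BP1 also has a coding transcript with a 3′ UTR of 0 nt and IGF2BP2 has one with 30 nt, both without matches. HMGA2 is the member whose longest annotated 3′ UTR lacks its matches. Its 4 matches lie in the 3003 nt 3′ UTR of a 4473 nt transcript, and the longest annotated HMGA2 3′ UTR, of 7421 nt, belongs to a different splice form and holds none, as do the other coding transcripts (1 of 7 coding transcripts has the sites). Among 2208 UTRs within 20% of 3003 nt, 14.18% held the motif and 0.05%, which is 1 UTR, held it 4 times or more. For the members with 1 match, the share of UTRs of like length with the motif was 10.9% for IGF2BP2, 12.41% for IGF2BP3, 8.49% for HMGA1, 12.6% for ARID3B and 19.2% for NRAS. A shorter form, TACCTCA without the preceding C, added 4 further matches in ARID3B, 3 in HMGA2 and 1 each in IGF2BP1, IGF2BP2 and NRAS. A match is a string of letters in an annotated UTR, and gene-level counts do not show which transcript was made.

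**Figure D1:**
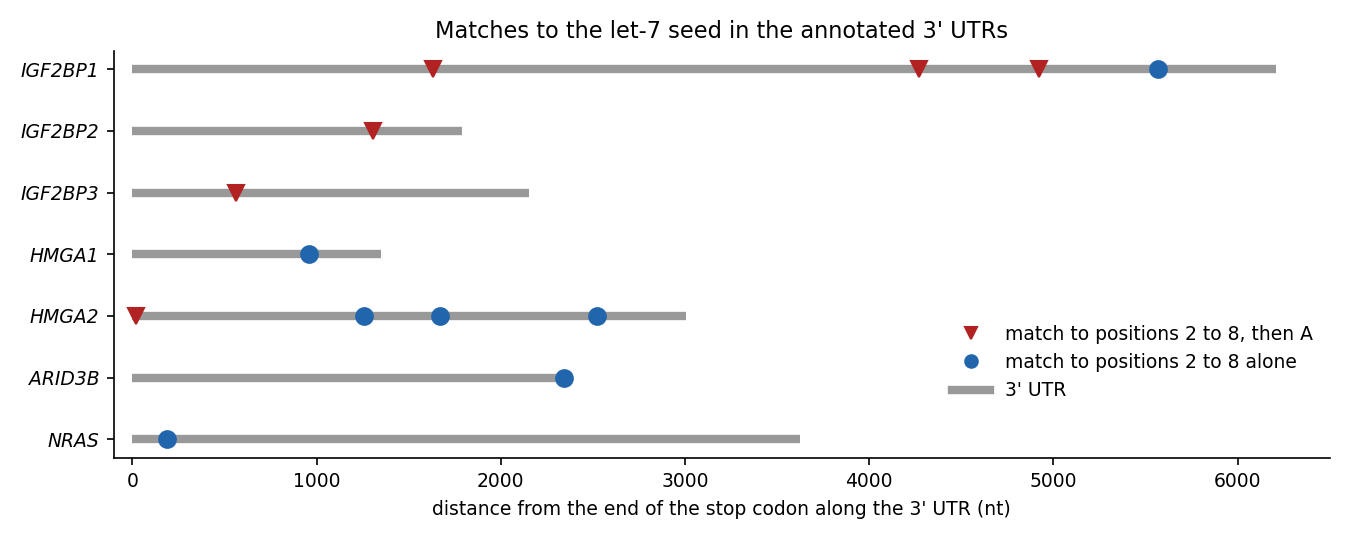
Positions of CTACCTC matches along the 3′ UTR with the most matches in each gene, in nt from the end of the stop codon; triangles are matches followed by A, circles are matches without it and grey bars are the UTRs. IGF2BP1 and HMGA2 have 4 matches each, HMGA2 with its first match at position 21, and the other genes have 1.

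The libraries held 38164848 to 52924532 listed counts. The first principal component held 59.1% of the variance. On it hemizygous 1 and wild type 1 lay at -39.8 and -34.5, so 2 libraries of different genotypes, both replicate 1, stood apart from the rest. Homozygous 1 lay at 3.15 and the replicate 2 libraries between 20.6 and 28.5. All 8 pluripotent stem cell markers looked for were in the table, with a summed level of 6000.0 to 6529 CPM (counts scaled to library size) in homozygous, 6108 to 6277 in hemizygous and 5469 to 5584 in wild-type samples. Defining markers of other lineages, PAX6 and SOX1 (neural), TBXT (mesoderm), SOX17 and FOXA2 (endoderm) and COL3A1, DCN and LUM (fibroblast), were not among the listed genes. Of the markers of other lineages that were listed, 5 neural ectoderm genes summed to 439.5 to 449.7 CPM in homozygous, 499.9 to 596.1 in hemizygous and 483.9 to 527.8 in wild-type samples, and 3 fibroblast genes to 621.9 to 667.2, 697.7 to 808.1 and 775.3 to 844.8 CPM in the same order. The 4 listed mesoderm genes summed to 364.6 to 381.2, 338.4 to 397.3 and 261.6 to 278.3 CPM, the 2 of trophoblast and amnion to 10.8 to 15.9, 14.18 to 20.12 and 15.31 to 23.56 CPM, and the 1 of endoderm to at most 2.159 CPM in any library. Their part in the results was not tested. DICER1 mRNA was at 128.9 and 117.9 CPM in homozygous, 118.4 and 96.41 in hemizygous and 169.4 and 126.1 CPM in wild-type samples, and its level does not check a point mutation.

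No member passed in any comparison. The test was edgeR's quasi-likelihood test on all 6 samples with p-values adjusted over all 16199 genes (Benjamini-Hochberg), and an adjusted p under 0.05 counted as called. It called 0 of the 7 members in homozygous against wild-type, hemizygous against wild-type and homozygous against hemizygous samples, where the share of all genes called was 0% each time. At an unadjusted p under 0.05 it also found 0 members in all 3 comparisons, beside 2.69%, 0.87% and 0.765% of all genes, and DESeq2 called 0 members in each, also at an unadjusted p under 0.05. All 7 were well measured, with 4722 to 125790 counts per library, so counting error added little to the width of the intervals. That width reflects spread between replicates, which edgeR estimates partly from other genes, so it is not each member's own spread alone. In bulk RNA, fewer cells of a type and less RNA per cell cannot be told apart. The plot of CPM by genotype shows every library.

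**Figure D2:**
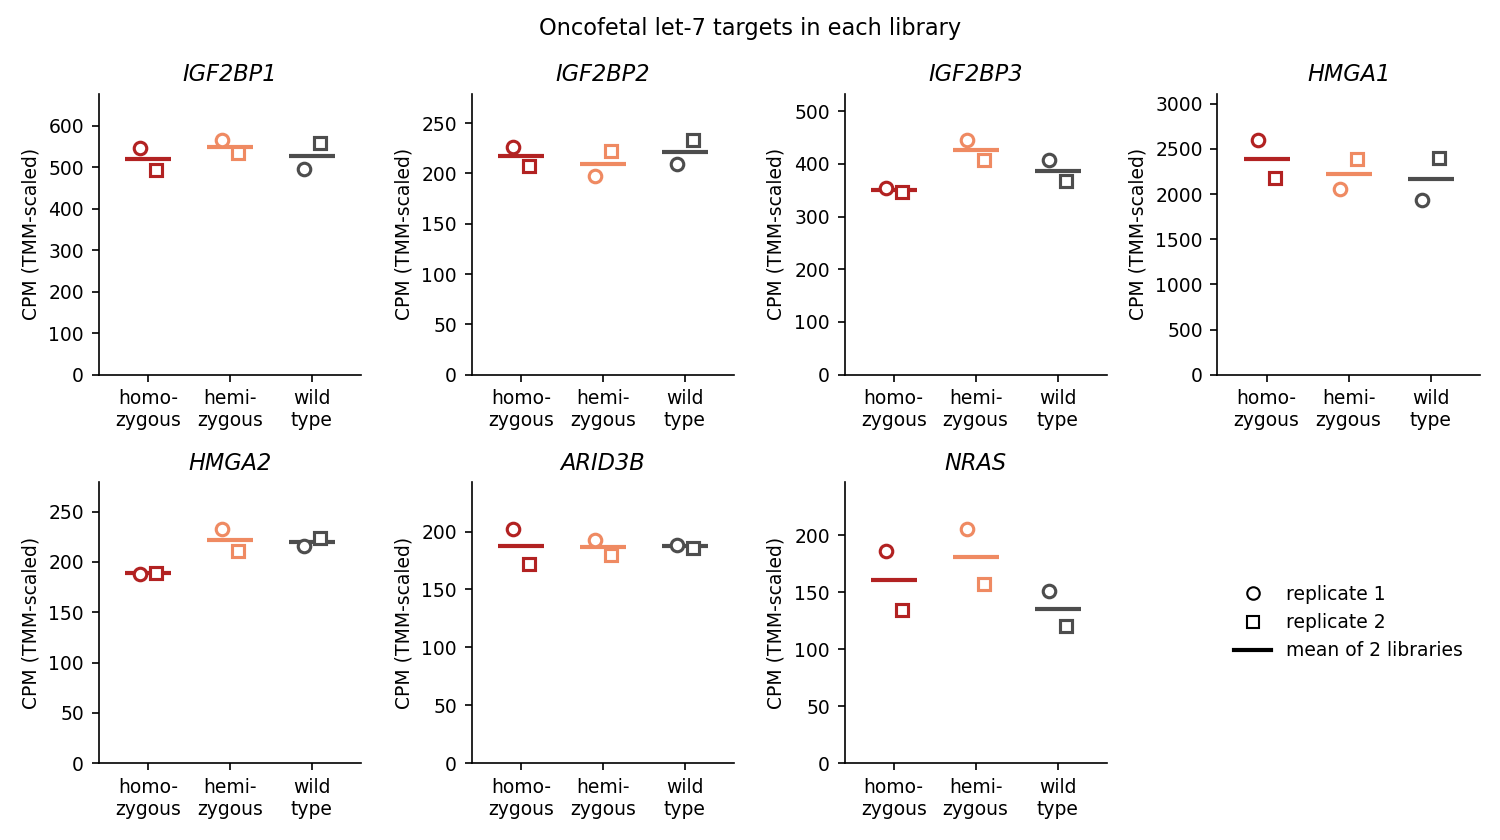
CPM (counts scaled to TMM-adjusted library sizes, linear axes from 0) of each member in the 6 libraries; circles are replicate 1, squares replicate 2 and lines the mean of 2 libraries. HMGA2 and IGF2BP3 are lowest in both homozygous libraries, at 187.6 to 189.3 and 346.4 to 354.1 CPM, and the NRAS libraries spread most, between 120.8 and 205.8 CPM.

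IGF2BP1, IGF2BP2 and IGF2BP3 encode RNA-binding proteins that stabilise and localise their client mRNAs and read N6-methyladenosine. IGF2BP1 (ENSG00000159217, chr17:48997412-49055650, plus strand) was at 547.5 and 493.1 CPM in homozygous, 564.9 and 535.0 CPM in hemizygous, and 496.8 and 559.2 CPM in wild-type samples. The 3 genotypes overlapped. IGF2BP1 carries the most seed matches followed by A, and their part in its level was not tested. Its log2 fold change was -0.02 ± 0.13 (SE) in homozygous and 0.06 ± 0.13 in hemizygous samples against wild type, with edgeR adjusted p of 1 for both. The 95% intervals reached from 0.79 to 1.23 times the wild-type level for homozygous samples and from 0.835 to 1.3 times for hemizygous samples. Homozygous against hemizygous samples gave -0.08 ± 0.13 (edgeR adjusted p = 0.999).

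IGF2BP2 (ENSG00000073792, chr3:185643739-185825056, minus strand) was at 226.5 and 207.7 CPM in homozygous, 196.9 and 222.2 CPM in hemizygous, and 209.2 and 232.8 CPM in wild-type samples. Again the genotypes overlapped, and hemizygous 1 was the lowest library. The log2 fold changes were -0.03 ± 0.14 in homozygous and -0.08 ± 0.14 in hemizygous samples against wild type (SE; edgeR adjusted p = 1 for both), and 0.05 ± 0.14 in homozygous against hemizygous samples (edgeR adjusted p = 0.999). IGF2BP2 is the paralog that stays on in many adult tissues.

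IGF2BP3 (ENSG00000136231, chr7:23310209-23470467, minus strand) was at 354.1 and 346.4 CPM in homozygous, 444.8 and 407.7 CPM in hemizygous, and 407.7 and 366.8 CPM in wild-type samples. Both homozygous libraries were below the other 4, and hemizygous 2 met wild type 1 at 407.7 CPM. Its log2 fold change of -0.28 ± 0.13 in homozygous against hemizygous samples (0.82-fold, 95% interval 0.664 to 1.02, unadjusted p = 0.0652, edgeR adjusted p = 0.999) had the lowest p of any member. Against wild type it was -0.15 ± 0.13 in homozygous and 0.14 ± 0.13 in hemizygous samples (edgeR adjusted p = 1 for both). IGF2BP3 shares 1521 exonic bases with MALSU1, a mitochondrial ribosome assembly factor gene on the other strand, and reads there cannot be told apart in unstranded libraries. MALSU1 was at 29.08 and 30.6 CPM in homozygous, 25.47 and 26.82 CPM in hemizygous, and 28.05 and 28.35 CPM in wild-type samples. Its listed level was far below that of IGF2BP3, but how reads in the shared bases were assigned is not given. That level therefore sets no limit on their part in the IGF2BP3 count.

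Per kilobase of the transcript with the most seed matches, the 3 paralogs were at comparable levels, with means over the 6 libraries of 91.3 CPM per kb for IGF2BP3, 64.4 for IGF2BP1 and 58.5 for IGF2BP2. Over the union of annotated exons the order changed, with 58.5 CPM per kb for IGF2BP1 and 45.6 for both IGF2BP2 and IGF2BP3, so the order of these 3 depends on the assumed transcript. As a share of the summed level per kb of the 3 paralogs, IGF2BP3 made up 39.5% and 41.3% in homozygous, 46.2% and 43.4% in hemizygous, and 45.1% and 39.8% in wild-type samples. Homozygous and wild-type samples overlapped in that share, and both hemizygous samples lay above both homozygous ones.

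HMGA1 and HMGA2 encode small chromatin proteins whose AT-hooks bind the minor groove of AT-rich DNA. HMGA1 (ENSG00000137309, chr6:34236873-34246231, plus strand) ranked 25 of the 16199 genes by mean CPM. It was at 2595 and 2182 CPM in homozygous, 2055 and 2387 CPM in hemizygous, and 1932 and 2399 CPM in wild-type samples, and the genotypes overlapped. The log2 fold changes against wild type were 0.14 ± 0.17 in homozygous and 0.04 ± 0.17 in hemizygous samples (SE; edgeR adjusted p = 1 for both), and homozygous against hemizygous samples gave 0.10 ± 0.17 (edgeR adjusted p = 0.999). Processed pseudogenes of HMGA1 could take some of its reads. The 2 in the table, HMGA1P2 and HMGA1P8, together held 0.192% to 0.371% of the HMGA1 count.

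HMGA2 (ENSG00000149948, chr12:65824131-65966295, plus strand), the textbook let-7 target, whose tumour-associated truncations remove its let-7 sites, was at 187.6 and 189.3 CPM in homozygous, 232.8 and 210.5 CPM in hemizygous, and 215.5 and 223.8 CPM in wild-type samples. Both homozygous libraries were below the other 4, while hemizygous and wild-type samples overlapped. The log2 fold change in homozygous against wild-type samples was -0.22 ± 0.12 (0.86-fold, 95% interval 0.699 to 1.05, unadjusted p = 0.12, edgeR adjusted p = 1). Against hemizygous samples it was -0.23 ± 0.12 (0.85-fold, 95% interval 0.692 to 1.04, unadjusted p = 0.102, edgeR adjusted p = 0.999), and hemizygous against wild-type samples gave 0.01 ± 0.12. The intervals against wild type reached up to 1.05 times the wild-type level for homozygous and 1.24 times for hemizygous samples. HMGA2 shares 384 exonic bases with an antisense gene that the table does not list under its GENCODE name.

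The ratio of HMGA1 to HMGA2 counts needs no library scaling. It was 13.8 and 11.5 in homozygous, 8.83 and 11.3 in hemizygous, and 8.97 and 10.7 in wild-type samples, highest in the 2 homozygous libraries. Per kilobase, HMGA1 was 20.6 to 32.2 times as abundant as HMGA2 in these libraries when the 4473 nt HMGA2 transcript is assumed. The plot of paralog shares and ratios shows both families.

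**Figure D3:**
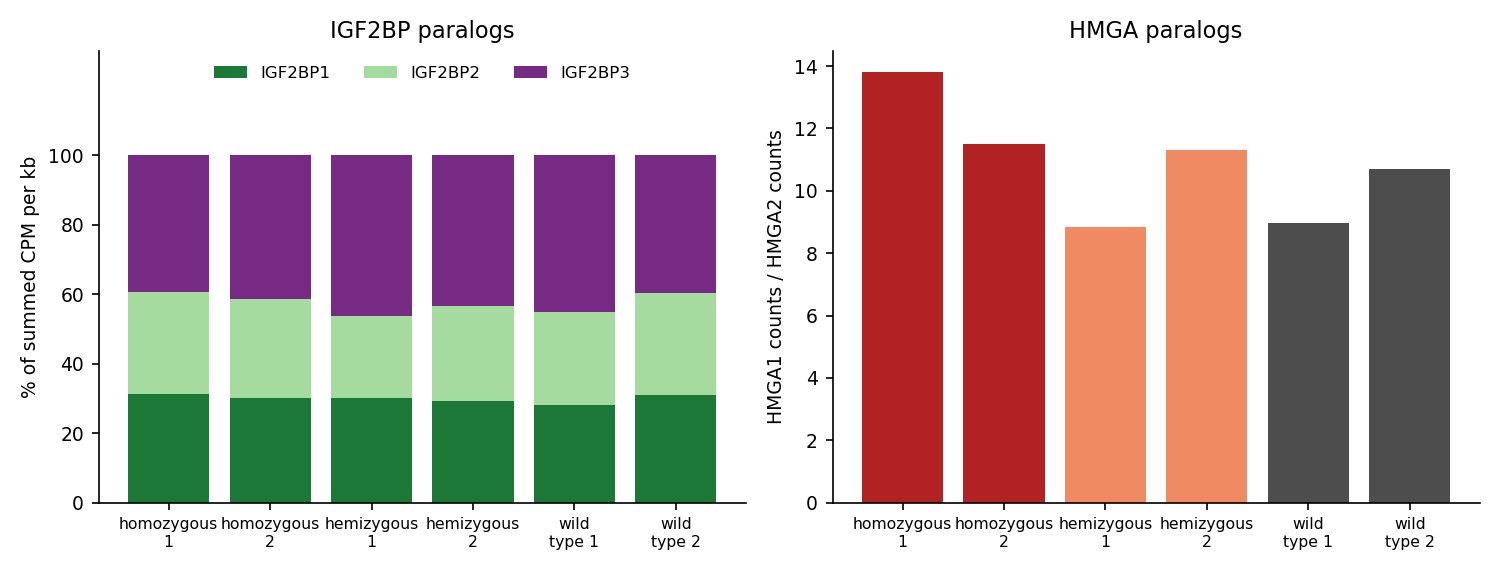
Left, share (%) of each IGF2BP paralog in their summed CPM per kb of transcript in each library. Right, HMGA1 counts divided by HMGA2 counts in each library; the homozygous libraries are at 13.8 and 11.5, hemizygous and wild-type ones between 8.83 and 11.3.

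ARID3B, an AT-rich interaction domain transcription factor needed in embryonic mesenchyme of the mouse, and NRAS, a small GTPase of the RAS-MAPK pathway, complete the set. ARID3B (ENSG00000179361, chr15:74541177-74598131, plus strand) was at 202.3 and 172.3 CPM in homozygous, 193.1 and 179.9 CPM in hemizygous, and 188.4 and 186.1 CPM in wild-type samples. The 2 wild-type libraries lay between the homozygous ones and between the hemizygous ones. All 3 log2 fold changes were within 0.01 of 0 with an SE of 0.14 (edgeR adjusted p = 1 against wild type and 0.999 between the edited genotypes).

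NRAS (ENSG00000213281, chr1:114704469-114716894, minus strand) was at 186.6 and 134.3 CPM in homozygous, 205.8 and 157.1 CPM in hemizygous, and 150.8 and 120.8 CPM in wild-type samples. Both hemizygous libraries were above both wild-type ones, and homozygous samples overlapped with each of the other genotypes. In hemizygous against wild-type samples the log2 fold change was 0.42 ± 0.22 (1.34-fold, 95% interval 0.924 to 1.93, unadjusted p = 0.105, edgeR adjusted p = 1), the largest estimate among the members. In homozygous against wild-type samples it was 0.24 ± 0.22 (edgeR adjusted p = 1), and in homozygous against hemizygous samples -0.18 ± 0.22 (edgeR adjusted p = 0.999). Replicates of 1 genotype differed by 1.39 times in homozygous, 1.31 times in hemizygous and 1.25 times in wild-type samples. Replicate 1 was the higher in every genotype. The hemizygous and wild-type estimates differed by 1.34 times. The hemizygous estimate was 0.22 without hemizygous 1 and 0.60 without hemizygous 2, and 0.59 without wild type 1 and 0.28 without wild type 2. Those fits leave replicate numbers unequal between groups. With replicate number added to the edgeR model as a block, the estimate was 0.41 (edgeR unadjusted p = 0.00224, adjusted p = 0.97).

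**Figure D4:**
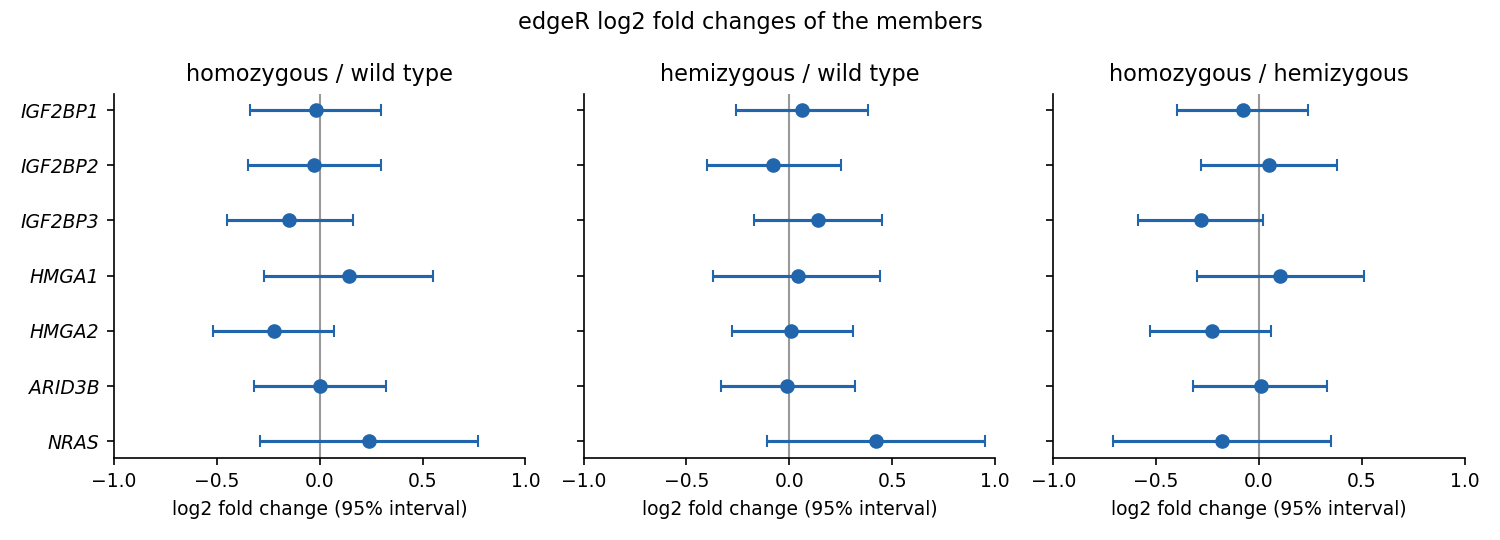
edgeR log2 fold changes of the 7 members with 95% intervals, for homozygous over wild type, hemizygous over wild type and homozygous over hemizygous, 2 samples per genotype. Every interval includes 0, and the widest estimate is NRAS in hemizygous over wild-type samples, at 0.42 with an interval of -0.11 to 0.95.

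Side by side, the members did not share a direction. In homozygous against wild-type samples 4 were below 0 and 2 above, with ARID3B at 0.00, and their median log2 fold change was -0.02, against 0.00 for all genes. In hemizygous against wild-type samples 5 were above 0 and 2 below, with a median of 0.04 against 0.00. These comparisons share the wild-type samples. Homozygous against hemizygous samples gave 4 below and 3 above 0, with a median of -0.08 against 0.00. In homozygous against wild-type samples the groups did not overlap for 2 members, HMGA2 and IGF2BP3, both lower, and for 0 that were higher, beside 13.6% of all genes lower and 14.2% higher without overlap. In homozygous against hemizygous samples they were again HMGA2 and IGF2BP3, 2 lower and 0 higher, beside 10.4% of all genes lower and 11% higher. In hemizygous against wild-type samples NRAS and, by less than the printed digits, IGF2BP3 were higher without overlap, 2 higher and 0 lower, beside 8.13% of all genes higher and 9.21% lower.

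The members were abundant, and 5 of the 7 spread less over the libraries than the median gene of like level. Their percentiles by mean CPM among all listed genes ran from 92.7 for NRAS to 99.9 for HMGA1. The ratio of the highest to the lowest library was 1.15 for IGF2BP1, 1.17 for ARID3B, 1.18 for IGF2BP2, 1.24 for HMGA2, 1.28 for IGF2BP3, 1.34 for HMGA1 and 1.70 for NRAS. For the 1163 genes with a mean CPM in the members' range the median of that ratio was 1.3, with quartiles of 1.19 and 1.47. On the per-kb scale HMGA1 was at 1180 CPM per kb, ahead of IGF2BP3, IGF2BP1 and IGF2BP2, and HMGA2 at 46.9, ARID3B at 43.8 and NRAS at 35.8 CPM per kb followed. Over the union of exons HMGA2 was the lowest, at 13.6 CPM per kb, beside 30.1 for ARID3B and 35.8 for NRAS.

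As a description over the 6 libraries, log2 CPM profiles of the members did not form 1 pattern. The highest Pearson r between members were 0.80 for IGF2BP2 and HMGA1 and 0.79 for IGF2BP3 and HMGA2, and the lowest was -0.56 for IGF2BP3 and HMGA1. Of 15129 genes with a mean CPM of at least 1, the profile nearest to HMGA2 was that of CDC14B (r = 0.994), followed by RABL2B and GABPB2. The profile of HMGA1 was nearest to SAMHD1 (r = 0.998), ZFHX2 and RBM10, and that of NRAS to TMX1 (r = 0.996) and ASXL3. IGF2BP1 was nearest to ENSG00000289272 (r = 0.976), ZNF607 and CGNL1, IGF2BP2 to NLE1 (r = 0.993), ZNF764 and MLLT1, IGF2BP3 to PCGF6 (r = 0.985), C8orf76 and NALF1, and ARID3B to SLC38A5 (r = 0.995), SIK2 and XPO5. With 6 libraries, 44 to 317 genes had an r above 0.9 with each member, and all values share the same library scaling.

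Other established let-7 targets were not called either. Of 42 listed, 40 were measured, and edgeR called 0 in each comparison, where it called 0% of all genes. At an unadjusted p under 0.05 edgeR's test found 0, 1 and 1, beside 2.69%, 0.87% and 0.765% of all genes. The order is homozygous against wild-type, hemizygous against wild-type and homozygous against hemizygous samples. In homozygous against wild-type samples 16 were higher and 24 lower, with a median of -0.09 against 0.00 for all genes. Without wild type 1 the median was 0.01, with 21 higher and 19 lower. Without homozygous 1 it was -0.21, with 10 higher and 30 lower. Leaving out 1 library leaves replicate numbers unequal between groups, so such values mix genotype with replicate number. With replicate number added to the edgeR model as a block, the median was -0.10, with 15 higher and 25 lower. The lowest unadjusted p were those of SALL4, a stem cell zinc-finger factor (log2 fold change 0.16 ± 0.12; 269.9 and 253.2 CPM in homozygous and 234.8 and 233.8 in wild-type samples), and YOD1, a deubiquitinase gene (-0.32 ± 0.15). In hemizygous against wild-type samples 22 were higher and 18 lower, with a median of 0.02, which ran from -0.10 without hemizygous 1 to 0.17 without hemizygous 2. Here CDK6, a G1 cyclin-dependent kinase, had 0.34 ± 0.15, with 94.23 and 89.14 CPM in hemizygous and 80.81 and 63.96 CPM in wild-type samples. DICER1, the edited gene and also a reported let-7 target, had -0.46 ± 0.19 (edgeR unadjusted p = 0.0456).

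Between the edited genotypes 12 of the 40 were higher and 28 lower in homozygous samples, with a median of -0.13 against 0.00. Without hemizygous 1, 27 were higher and 13 lower, with a median of 0.03, and without hemizygous 2 the median was -0.21. These values also leave replicate numbers unequal between groups. PRTG, the protogenin receptor gene with 2 matches in its longest 3′ UTR, was at 15.14 and 13.61 CPM in homozygous and 26.62 and 20.55 CPM in hemizygous samples (-0.71 ± 0.17, unadjusted p = 0.00504, edgeR adjusted p = 0.999). Wild-type samples lay between them, at 18.24 and 18.47 CPM. CDC34, a ubiquitin-conjugating enzyme, had 0.22 ± 0.17. TRIM71, a stem cell RNA-binding protein with 6 matches, was at 759.3 and 694.2 CPM in homozygous, 806.7 and 710.0 CPM in hemizygous, and 745.9 and 809.3 CPM in wild-type samples, and the genotypes overlapped.

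**Figure D5:**
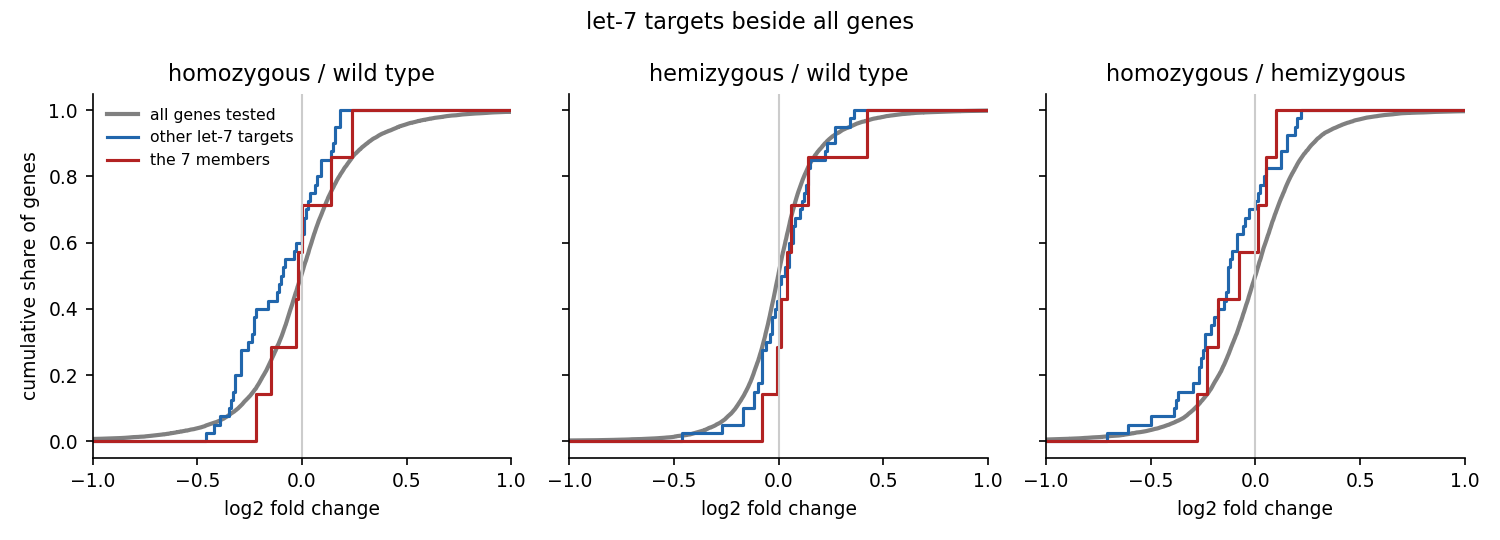
Cumulative share of genes by edgeR log2 fold change for all 16199 genes (grey), 40 other let-7 targets (blue) and the 7 members (red), in the 3 comparisons. Over most of its range the blue curve lies left of the grey one between homozygous and hemizygous samples, with medians of -0.13 and 0.00. Without hemizygous 1, which leaves replicate numbers unequal between groups, the median of the other let-7 targets was 0.03.

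Across the table, 1491 genes had CTACCTC in their longest 3′ UTR. In homozygous against wild-type samples 40.8% of them were above 0, beside 45.9% of the 13205 genes with an annotated 3′ UTR, and their median was -0.042 against -0.019. In hemizygous against wild-type samples 52.6% were above 0, beside 48.8%, with medians of 0.009 and -0.003. Homozygous against hemizygous samples gave 37.6% beside 46.6%, with medians of -0.05 and -0.016. For the 184 genes with 2 matches or more the medians were -0.037, 0.023 and -0.059 in the same order. With 1 library left out these medians took both signs. That leaves replicate numbers unequal between groups and mixes genotype with replicate number, and no version with a replicate block was made. For the 1491 genes the median in homozygous against hemizygous samples was 0.02 without hemizygous 1, with 55.9% above 0 beside 53.5% of genes with a 3′ UTR, and -0.109 without hemizygous 2. For homozygous against wild-type samples it came to 0.015 once wild type 1 was left out and to -0.087 without homozygous 1, and in hemizygous against wild-type samples -0.046 without hemizygous 1 and 0.072 without hemizygous 2. For the 184 genes the median in homozygous against wild-type samples ran from -0.094 without homozygous 1 to 0.025 without homozygous 2, in hemizygous against wild-type samples from -0.036 without hemizygous 1 to 0.096 without hemizygous 2, and in homozygous against hemizygous samples from -0.119 without hemizygous 2 to 0.016 without hemizygous 1. Length, base composition and expression of the UTRs were not matched.

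Genes that work with the members were grouped by role, and edgeR called 0 in every group and comparison, where it called 0% of all genes. At an unadjusted p under 0.05 edgeR's test found 2.69% of all genes in homozygous and 0.87% in hemizygous samples against wild type. Between the edited genotypes it found 0.765%. The 9 IGF2BP1 mRNP partner proteins had medians of 0.05 in homozygous and 0.04 in hemizygous samples against wild type, and of 0.00 between the edited genotypes, and 0 of them passed an unadjusted p under 0.05 in any comparison. Leaving out 1 library moved these medians between -0.04 (without homozygous 1) and 0.19 (without homozygous 2), between -0.01 (without hemizygous 1) and 0.13 (without hemizygous 2), and between -0.06 (without homozygous 1) and 0.09 (without homozygous 2). FMR1, the fragile X RNA-binding protein, had the lowest p of those above 0, with 0.21 ± 0.14 in homozygous and 0.27 ± 0.14 in hemizygous samples against wild type. STAU1, a double-stranded RNA-binding protein, had -0.04 ± 0.16 in homozygous and ELAVL1, an AU-rich element binder, -0.05 ± 0.12 in hemizygous samples against wild type. Between the edited genotypes SYNCRIP, an hnRNP, had 0.06 ± 0.12 and FMR1 -0.06 ± 0.14. Of the IGF2BP client mRNAs 9 of 10 were measured, with medians of -0.08, 0.02 and -0.08 in the same order and 0 past an unadjusted p under 0.05. Without 1 library they ran from -0.20 (homozygous 1 left out) to -0.03 (homozygous 2), from -0.10 (hemizygous 1) to 0.15 (hemizygous 2), and from -0.16 (hemizygous 2 or homozygous 1) to -0.03 (hemizygous 1 or homozygous 2). Among them MYC, a growth transcription factor whose mRNA IGF2BP1 protects, was at 175.3 and 122.0 CPM in homozygous, 152.8 and 120.1 CPM in hemizygous, and 141.3 and 126.6 CPM in wild-type samples. ACTB, the beta-actin mRNA through which IGF2BP1 was first known as a zipcode-binding protein, had -0.18 ± 0.12 in homozygous and -0.09 ± 0.12 in hemizygous samples against wild type. MAPK4 had 0.23 ± 0.30 in hemizygous against wild-type samples. CD44, an adhesion receptor, was at 12.65 and 11.25 CPM in homozygous and 28.19 and 11.29 CPM in hemizygous samples. Wild type 1 was at 27.44 CPM and wild type 2 lower than any of these, so hemizygous 1 and wild type 1 stood above the other 4 libraries.

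The 17 N6-methyladenosine writers, erasers and other readers had medians of -0.06, 0.03 and -0.08. These ran from -0.16 (homozygous 1 left out) to 0.02 (homozygous 2), from -0.04 (hemizygous 1) to 0.09 (hemizygous 2), and from -0.18 (homozygous 1) to 0.00 (hemizygous 1). YTHDC1, a nuclear reader, passed an unadjusted p under 0.05 in hemizygous against wild-type and in homozygous against hemizygous samples. That gene was at 0.683 and 0.7139 CPM in homozygous, 11.92 and 0.835 CPM in hemizygous, and 1.003 and 0.4605 CPM in wild-type samples, so 1 library, hemizygous 1, held the difference. METTL3, the catalytic writer, had 0.15 ± 0.16 and FTO, an eraser, -0.30 ± 0.21 in homozygous against wild-type samples, METTL3 0.19 ± 0.16 in homozygous against hemizygous samples, and YTHDF1, a cytoplasmic reader, -0.12 ± 0.13 in hemizygous against wild-type samples. The 8 other high mobility group genes had medians of 0.03, -0.02 and 0.02, and no gene among them was beyond 0.20 in size in any comparison. With 1 library left out the medians ran from -0.05 (homozygous 2) to 0.06 (wild type 1), from -0.07 (hemizygous 2) to 0.06 (hemizygous 1), and from -0.05 (hemizygous 1) to 0.10 (hemizygous 2). HMGN1 had 0.12 ± 0.15 and HMGN2 -0.11 ± 0.13 in homozygous against wild-type samples, HMGN5 0.20 ± 0.18 and HMGB2 -0.11 ± 0.22 in hemizygous against wild-type samples, and HMGN3 0.12 ± 0.17 and HMGN2 -0.08 ± 0.13 in homozygous against hemizygous samples. HMGN proteins bind nucleosomes and HMGB proteins bend DNA, and neither has the AT-hooks of HMGA.

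Other ARID genes (12 of 13 measured) had medians of -0.07, 0.04 and -0.08, with KDM5B, a histone demethylase, at 0.17 ± 0.21 and ARID1A, a SWI/SNF subunit, at -0.15 ± 0.16 in homozygous against wild-type samples. With 1 library left out the ARID medians ran from -0.21 (homozygous 1) to 0.00 (homozygous 2), from -0.02 (hemizygous 1) to 0.17 (hemizygous 2), and from -0.27 (homozygous 1) to 0.07 (homozygous 2). ARID2 had 0.14 ± 0.18 and ARID5A -0.16 ± 0.19 in hemizygous against wild-type samples, and ARID5A 0.16 ± 0.19 and ARID2 -0.27 ± 0.18 in homozygous against hemizygous samples. Other RAS genes and RAS regulators (12 of 13 measured) had medians of -0.16, 0.01 and -0.16. With 1 library left out these ran from -0.23 (homozygous 1) to -0.06 (wild type 1 or homozygous 2), from -0.10 (hemizygous 1) to 0.11 (hemizygous 2), and from -0.30 (hemizygous 2) to -0.01 (hemizygous 1), where 6 were higher and 6 lower. RRAS2 had 0.12 ± 0.12 in homozygous against wild-type and 0.11 ± 0.12 against hemizygous samples, BRAF, a RAS effector kinase, 0.17 ± 0.13 in hemizygous against wild-type samples, and RASA1, a RAS GTPase-activating protein, -0.29 ± 0.16 in homozygous against hemizygous samples. MRAS, a RAS-related GTPase, had -0.40 ± 0.20 in homozygous and -0.25 ± 0.20 in hemizygous samples against wild type, at 11.21 and 11.62 CPM in homozygous, 13.98 and 11.27 CPM in hemizygous, and 17.08 and 12.97 CPM in wild-type samples, with an edgeR adjusted p of 1 for both.

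Of 9 host genes of let-7, 7 were measured, with medians of 0.23, 0.03 and 0.21. With 1 library left out these ran from 0.00 (wild type 1) to 0.53 (wild type 2), from 0.02 (hemizygous 2) to 0.19 (wild type 2), and from 0.06 (hemizygous 1) to 0.51 (hemizygous 2). The protein-coding hosts HUWE1 and WDR82 were at 424.9 to 677.4 and 110.5 to 160.8 CPM over the 6 libraries. The noncoding hosts were far lower than these 2, and so was SPACA6, also protein-coding, at 3.933 to 7.262 CPM. MIRLET7BHG, which hosts let-7a-3 and let-7b, was at 2.534 and 2.437 CPM in homozygous, 1.121 and 2.088 CPM in hemizygous, and 0.7134 and 1.535 CPM in wild-type samples. Both homozygous libraries were the highest, and the log2 fold change against wild type was 1.16 ± 0.46 (unadjusted p = 0.042, edgeR adjusted p = 1). MIR100HG, host of let-7a-2, had -0.70 ± 0.50, with 2.534 and 4.431 CPM in homozygous and 7.577 and 3.684 CPM in wild-type samples. MIRLET7IHG had 0.35 ± 0.29 and MIRLET7A1HG -0.10 ± 0.27 in hemizygous against wild-type samples.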

How the data were processed

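RNA came from Trizol extracts and libraries from an Illumina TruSeq RNA kit, which keeps no strand, per the labels' protocols. The submitters' processing notes name cutadapt, HISAT2 and hg38. How reads were assigned to genes is not given here. The authors deposited raw counts per gene, with no normalization. Totals were 38164848 to 52924532 per library. Counts come from reads without molecular identifiers.

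The counts were tested with edgeR 4.0.16 in R 4.3.3 (TMM, filterByExpr by group, which removed 0 of 16199 genes; 3 residual degrees of freedom) on all 6 samples. CPM use TMM-scaled library sizes. An SE is the log2 fold change over the root of the F statistic, and 95% intervals use the same fit. DESeq2 1.42.0, other scalings and filters, a replicate block, and leaving out each sample were alternatives. Scripts were tested on simulated data. Counts of any 2 libraries differed beyond sampling noise (chi-square over its degrees of freedom 11.5 to 97.4). Seed matches came from GENCODE 29 transcripts (GRCh38, which is hg38) and microRNAs from RefSeq. Python 3.11.15 drew the figures.

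All 7 members were reported; from each list, the gene of lowest unadjusted p in each direction, since none was called, and for likeness the 3 genes with the highest r, of which 1 is not reported here. TRIM71, HUWE1, WDR82 and SPACA6 were named after their values were seen. Members and lists were chosen with earlier results of these data known.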

Additional observations from a re-analysis of the deposited data

Results flagged for a closer look

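IGF2BP3 stood out because both homozygous libraries, at 354.1 and 346.4 CPM, and both hemizygous libraries, at 444.8 and 407.7 CPM, lay on opposite sides of both wild-type libraries, at 407.7 and 366.8 CPM. The homozygous ones were below and the hemizygous ones at or above. The difference between the edited genotypes was tested directly, in homozygous against hemizygous samples, and gave a log2 fold change of -0.28 ± 0.13 (SE; edgeR adjusted p = 0.999). The order against wild type rests on hemizygous 2 and wild type 1, which were equal to 4 digits. Of all 16199 genes, 115 (0.71%) had the 2 edited genotypes on opposite sides of both wild-type libraries. Groups of 2 samples allow no check for single samples that lie apart.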

How the results depend on the processing

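The 0 members called stayed at 0 in all 3 comparisons under every alternative run. Over all genes, DESeq2 called 10, 7 and 10 genes in homozygous against wild-type, hemizygous against wild-type and homozygous against hemizygous samples, where edgeR called 0; without 1 sample edgeR called 0 to 1, 0 to 2 and 0 to 3. The cause was not tested. What the replicate numbers mark is not given and was not tested, so they may be no more than names. Same-numbered deviations correlated at 0.357, 0.741 and 0.476 in the same order, over only 2 numbers. Chi-square over its degrees of freedom was 11.5 to 23.2 among replicate 2 libraries and 16.5 for wild type 1 with hemizygous 1. Replicates of 1 genotype gave 41.7 to 90.3. Homozygous 1 went the other way, at 58.3 with wild type 1 and 55.7 with hemizygous 1, beside 41.7 with homozygous 2. Leaving out 1 library leaves its group with 1 number, so replicate numbers are then unequal between groups. With the replicate block edgeR called 0, 1 and 1 genes and DESeq2 126, 23 and 24. NRAS in hemizygous against wild-type samples then had an adjusted p of 0.97 in edgeR (log2 fold change 0.41) and 0.114 in DESeq2 (0.42), the lowest of any member and setting, against 1 without the block. At an unadjusted p under 0.05 the 0 members became 2, 1 and 2 with the block in edgeR and 1, 1 and 2 in DESeq2. In edgeR's quasi-likelihood test across all genes these were HMGA2 (unadjusted 0.0487) and NRAS (0.036), then NRAS (0.00224), then IGF2BP3 (0.0158) and HMGA2 (0.0399), beside 1942, 616 and 1328 of all genes. Of 21 member fold changes, 7 stayed on 1 side of 0 without each sample in turn, HMGA1 in homozygous against wild-type samples reached 0.00, and 13 took both signs. One of the 13 was ARID3B in homozygous against wild-type samples, at 0.00 with all samples, which ran from -0.12 to 0.11. The other 12 were at most 0.24 in size. In hemizygous against wild-type samples these ran from -0.02 to 0.16 for IGF2BP1, -0.17 to 0.02 for IGF2BP2, -0.11 to 0.21 for HMGA1, -0.05 to 0.08 for HMGA2 and -0.05 to 0.04 for ARID3B. In homozygous against wild-type samples they ran from -0.10 to 0.08 for IGF2BP1, -0.09 to 0.07 for IGF2BP2 and -0.02 to 0.46 for NRAS. In homozygous against hemizygous samples they ran from -0.03 to 0.14 for IGF2BP2, -0.03 to 0.22 for HMGA1, -0.11 to 0.12 for ARID3B and -0.43 to 0.04 for NRAS. HMGA2 stayed between -0.24 and -0.18 in homozygous against wild-type samples and IGF2BP3 between -0.34 and -0.22 in homozygous against hemizygous samples. Seed matches summed to 9 in the longest 3′ UTRs and in those of the longest coding sequences, and to 13 over all coding transcripts, a count added after the data were seen. Medians of genes with seed matches, recomputed without each sample after the data were seen, and of the other lists moved with single libraries, as given beside them. List medians moved beyond the spread between libraries in 17 of 144 values that leave out 1 sample and in 0 of the others.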
